A study of Drosophila melanogaster with 10 samples.

Results

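The genes described here make ribosomes in the nucleolus. They are 33 genes of Drosophila melanogaster chosen by name, namely subunits and an initiation factor of RNA polymerase I, proteins of the small nucleolar RNPs, nucleolar GTPases, RNA helicases and assembly factors of both ribosomal subunits. A gene belonged to the set if its FlyBase symbol or a synonym was on the list. The rule itself used no measured value, but the list was made with earlier results of these data known. The table of read counts held 32 of the 33 among its 17676 genes. The missing one was hoip, a small snoRNP protein, which was not analysed here, and Polr1D, another subunit of RNA polymerase I, had been left off the list because it overlaps brat. RNA polymerase I transcribes the repeated rRNA genes into a long precursor, which small nucleolar RNPs modify at many sites and which is then cut and folded onto ribosomal proteins. Helicases, GTPases and kinases drive these steps and leave the particles once the subunits can be exported. Neuroblasts, the neural stem cells of the fly brain, are known for large nucleoli, and in flies and mammals many of these genes are textbook targets of the transcription factor Myc.

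Cells of 3 genotypes were compared, all from the brains of larvae that were 96 h old according to the labels, reared at 25°C. All carried UAS-mCD8::GFP under wor-GAL4 ase-GAL80, a driver that is active in type II neuroblasts (NB II) because ase-GAL80 blocks it in type I neuroblasts, and cells from many pooled brains were sorted by light scatter and GFP intensity. The descendants of NB II can carry GFP too. Control NB II (3 libraries) carried no further knockdown, Brat-depleted NB II (4 libraries, brat-KD) expressed dsRNA against brat, a translational repressor whose loss turns NB II lineages into tumors, and the remaining 3 libraries (brat-KD Spt5-KD, written brat-KD/Spt5-KD here) came from cells labelled as expressing an additional siRNA against the transcription elongation factor Spt5. The labels do not say that replicates came from separate cultures or animals, so the p-values measure the spread between these libraries, which may be technical. Polyadenylated RNA was sequenced, and levels are given as CPM, the counts scaled to library size with the TMM method.

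The libraries held between 2158058 and 9753111 counts. The lowest count behind any member value was 70 for bys in brat-KD/Spt5-KD replicate 1, with a 95% exact Poisson interval of 54.6 to 88.4, which covers counting error only. Control replicate 1 and brat-KD/Spt5-KD replicate 1 stood apart from their groups. Their counts correlated with those of their own group at a Spearman coefficient of 0.872 to 0.874 and 0.767 to 0.768, whereas the other pairs within a group reached 0.923 to 0.984, and they had counts on 8558 and 7544 genes against 9252 to 11617 in the other 8 libraries. The brat transcript was lower in Brat-depleted NB II than in the control (log2 fold change -2.48, SE 0.18, edgeR adjusted p = 1.5e-05) and in the brat-KD/Spt5-KD-labelled libraries than in the control (log2 fold change -2.18, SE 0.34, edgeR adjusted p = 0.014). Spt5 was not called lower than in Brat-depleted NB II where the label names its knockdown. Its transcript stood at 227, 198 and 182 CPM in control NB II, 139, 165, 135 and 128 CPM in Brat-depleted NB II and 205, 116 and 584 CPM in the brat-KD/Spt5-KD-labelled libraries, and the difference from Brat-depleted NB II did not pass the test (log2 fold change 1.06, SE 0.45, edgeR adjusted p = 0.17), so these libraries are called by their label throughout.

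Brat-depleted NB II had more mRNA of nearly all nucleolar genes than control NB II. With edgeR's quasi-likelihood test at a Benjamini-Hochberg adjusted p under 0.05, 28 of the 32 members were higher and 0 were lower, where 28.1% of all genes tested passed, 13.8% being higher and 14.3% lower. At an unadjusted p under 0.05, 31 members were higher and 0 lower, and DESeq2 called 29 higher and 0 lower. Of the 8785 genes tested, 1668 were higher and 1783 lower at that unadjusted p, and DESeq2 called 1435 higher and 1438 lower. The fitted change was upward for all 32 members, from 0.10 to 2.14 on the log2 scale, with a median of 1.15, while the median over all genes tested was -0.02. For 29 members the 4 Brat-depleted libraries lay above all 3 control libraries, as 20.4% of all genes tested did. The count of called members ranged from 24 to 29 when each library was left out in turn. Non3, Dbp73D, Nmd3 and RIOK2 were the calls that some of these left-out libraries removed. With all 3 genotypes in 1 fit 22 members were called, and nop5, NHP2, Non3, Nmd3, bys and Dbp73D no longer passed (edgeR adjusted p from 0.06 for nop5 to 0.28 for NHP2). All of this concerns RNA from sorted cells in bulk, in which fewer cells of a type and less RNA per cell cannot be told apart.

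Together the 32 members took 0.415%, 0.422% and 0.392% of the counts of the control libraries, 1.09%, 0.972%, 0.944% and 0.869% of the Brat-depleted ones and 0.611%, 0.869% and 0.731% of those labelled brat-KD/Spt5-KD. The groups did not overlap in the first comparison, and the lowest of the last 3 shares (95% exact binomial interval 0.603% to 0.619%, for counting error only) lay above every control share. In summed CPM this was 4191 ± 187 (SD, n = 3) in the control, 9509 ± 1150 (SD, n = 4) in Brat-depleted NB II and 7483 ± 1787 (SD, n = 3) in the brat-KD/Spt5-KD-labelled libraries. Measured per kilobase of annotated exon, the most abundant member in control NB II was Non1 with a mean of 247 CPM per kilobase, ahead of Fib with 227 and mod with 199, and the least abundant were kz with 6.49, RIOK1 with 7.42 and Mat89Ba with 8.54.

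**Figure D1:**
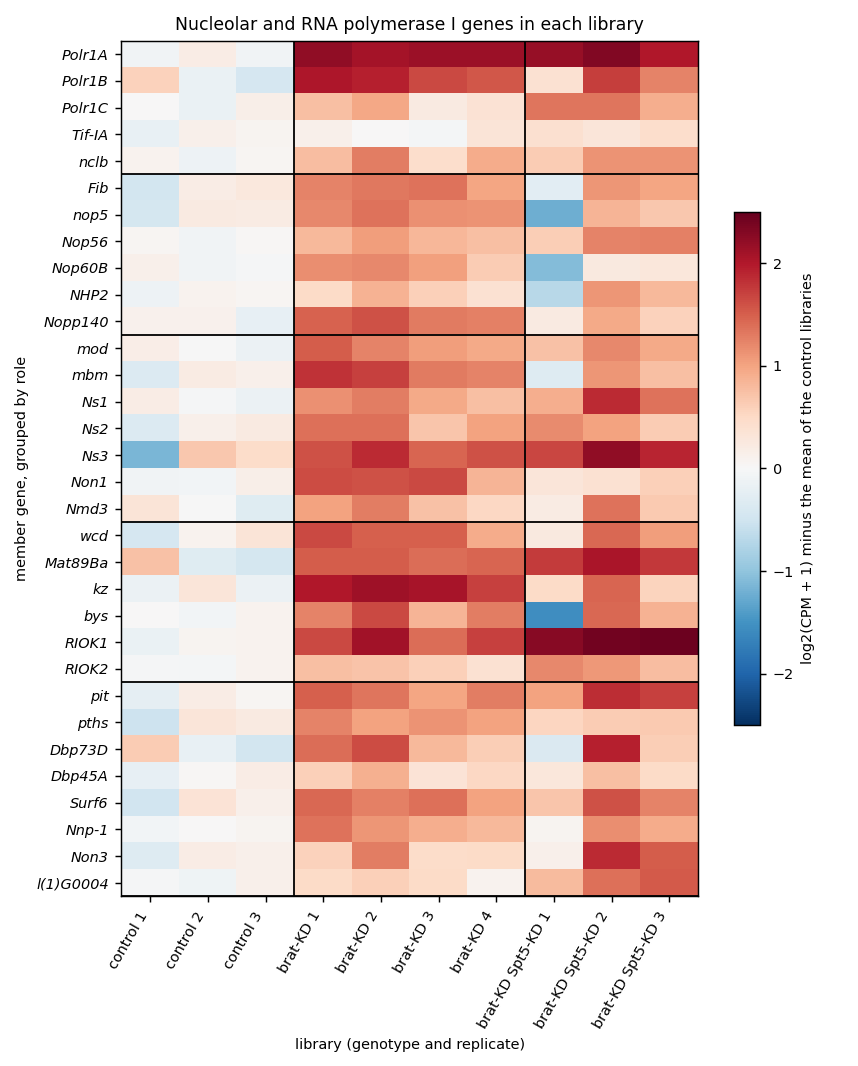
Level of each of the 32 members (rows, grouped by role) in each of the 10 libraries (columns), as log2(CPM + 1) minus the mean of the 3 control libraries. The median member lay between 0.94 and 1.31 above the control mean in the 4 Brat-depleted libraries, and at 0.45, 1.29 and 0.92 in brat-KD/Spt5-KD replicates 1, 2 and 3, where replicate 1 shows both high and low members.

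Markers of several cell types differed between the genotypes. The summed level of 8 neuroblast markers was 1684 to 1923 CPM in the control, 3486 to 3894 CPM after Brat depletion and 1802 to 2414 CPM in the brat-KD/Spt5-KD-labelled libraries, and 7 of the 8 rose in Brat-depleted NB II (median log2 fold change 1.01). The largest part of this sum was mira, with 1041 to 1215, 1774 to 2323 and 934 to 1192 CPM in these genotypes. Single markers of the brat-KD/Spt5-KD-labelled libraries differed from the control by -1.23 (Sp1) to 1.84 (tll) on the log2 scale. Of the 8, pnt and tll were called higher there and 0 were called lower. Of 7 markers of intermediate neural progenitors, the transit-amplifying daughters of NB II, 6 were lower (ase, erm, ham, opa, D and ey) and 1, grh, was higher in Brat-depleted NB II (median -2.14). Their sum was 560.3 to 727 CPM, 643 to 726 CPM and 334 to 677 CPM in the 3 genotypes in the same order, with grh making up most of it after Brat depletion (523 to 643 CPM). The 9 markers of ganglion mother cells and neurons summed to 3033 to 4044 CPM in the control, 818 to 927 CPM after Brat depletion and 706 to 760 CPM in the brat-KD/Spt5-KD-labelled libraries, and 7 of the 9 fell in Brat-depleted NB II. The 6 hemocyte markers summed to 32.7 to 93.5 CPM, 1.70 to 4.89 CPM and 90.7 to 112 CPM in the same order, with NimC1 at 0 in every library. Different genes made up these sums. In the control it was mainly Pxn (32.3 to 89.0 CPM, with Hml at 0), and in the brat-KD/Spt5-KD-labelled libraries mainly Col4a1 (69.2 to 80.7 CPM), with Hml at 6.55 CPM or more and Pxn at 0 to 7.56 CPM. The 6 glial markers summed to 277 to 506 CPM over all libraries. The Brat-depleted libraries, at 277 to 379 CPM, lay below every library of the other genotypes, which overlapped each other. Of these markers 1, gcm, was called lower and 0 were called higher in Brat-depleted NB II than in the control (median -0.51). The part of these cells in the differences between genotypes was not tested.

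For most members the brat-KD/Spt5-KD-labelled libraries did not differ from Brat-depleted NB II by more than the test could resolve, and the few that passed lay in both directions. Between these genotypes 11.6% of all genes tested passed the threshold, 5.91% being higher and 5.71% lower. Of the members, 3 were lower (Nopp140, Non1 and kz), 1 was higher (l(1)G0004) and 28 did not pass, and the median change was -0.10 (range -1.11 to 0.83) against -0.05 over all genes tested. The libraries did not overlap for 7 members that lay lower and 4 that lay higher, where 16.6% and 12.8% of all genes tested did so. Each of the 4 calls depended on the libraries used. Without brat-KD replicate 1, 2 or 3 the number of members called was 0, without brat-KD replicate 4 it was 1, and without brat-KD/Spt5-KD replicate 2 or 3 it was 2 or 1. Without brat-KD/Spt5-KD replicate 1, which stands apart, it was 8, with Nop60B, Nopp140, Non1 and kz lower and Ns1, Non3, RIOK1 and l(1)G0004 higher. Over all genes tested, 1017 calls became 334 to 2408 in these fits, with 2408 in the last.

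Against control NB II, the brat-KD/Spt5-KD-labelled libraries had higher levels of 11 members and lower levels of 0, where 3.97% of all genes tested were called higher, 3.32% lower and 7.29% in either direction. At an unadjusted p under 0.05 these numbers were 21 and 0, and DESeq2 called 15 and 0. Of the 8506 genes tested, 958 were higher and 932 lower at that unadjusted p, and DESeq2 called 657 higher and 690 lower. The 11 members called by edgeR were Polr1A, Polr1C, Nop56, Ns1, mod, pit, Mat89Ba, nclb, RIOK1, RIOK2 and l(1)G0004. Only Nop60B had a fitted change below 0, at -0.06, and the median over the members was 0.97 against -0.01 over all genes tested. The libraries of 20 members lay entirely above the control, as did 15.8% of all genes tested. The number of members called fell to 3, 1 and 2 without control replicates 1, 2 and 3 and to 2 without brat-KD/Spt5-KD replicate 2 or 3, and rose to 21 without brat-KD/Spt5-KD replicate 1. Over all genes tested, 620 calls became 64 to 1504 in these fits, with 1504 in the last. Polr1A kept its call in each of these 6 fits and RIOK1 in 5 of them. The comparisons share libraries, so a member's 3 values are not independent of each other. By its mean level, control NB II was lowest for 31 members, Brat-depleted NB II highest for 19 and the brat-KD/Spt5-KD-labelled libraries highest for 13.

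**Figure D2:**
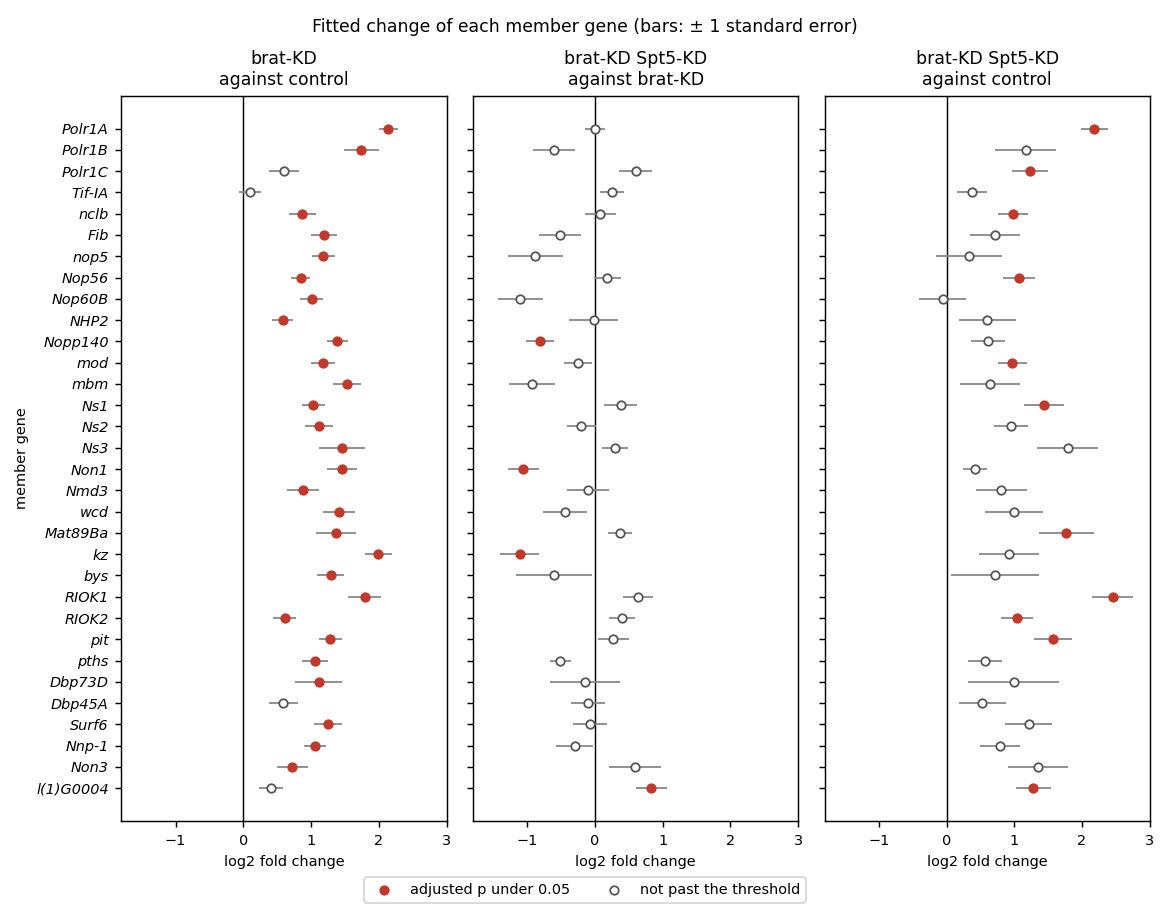
Fitted log2 fold change (points) ± 1 SE (bars) of the 32 members in the 3 comparisons, with filled points for an adjusted p under 0.05. In the left panel all points lie above 0, from 0.10 for Tif-IA to 2.14 for Polr1A, in the middle panel they spread around 0 from -1.11 for kz to 0.83 for l(1)G0004, and in the right panel they reach from -0.06 for Nop60B to 2.45 for RIOK1.

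The subunits of RNA polymerase I differed from each other. Polr1A (FBgn0019938, 2R:14595611-14601216, minus strand) encodes the largest subunit, which forms the active centre together with Polr1B. It stood at 77.5, 93.8 and 78.0 CPM in control NB II, 390.4, 354, 367 and 367 CPM in Brat-depleted NB II and 376, 415 and 333 CPM in the brat-KD/Spt5-KD-labelled libraries. The control lay apart from both other genotypes, which overlapped. Polr1A had the largest change of any member in Brat-depleted NB II (log2 fold change 2.14, SE 0.14, edgeR adjusted p = 1e-05), showed no fitted difference between the brat-KD/Spt5-KD-labelled libraries and Brat-depleted NB II (log2 fold change 0.00, SE 0.15, edgeR adjusted p = 0.99), and was higher in the brat-KD/Spt5-KD-labelled libraries than in the control (log2 fold change 2.18, SE 0.20, edgeR adjusted p = 0.0032). This last call was kept in all 14 alternative fits. Polr1B (FBgn0003278, 2L:404285-407969, plus strand), the second-largest subunit, stood at 57.2, 33.6 and 28.1 CPM in control NB II, 157, 148, 121 and 113 CPM in Brat-depleted NB II and 49.7, 127 and 91.2 CPM in the brat-KD/Spt5-KD-labelled libraries. Brat-depleted NB II lay above the control (log2 fold change 1.74, SE 0.26, edgeR adjusted p = 0.00074), whereas replicate 1 of the brat-KD/Spt5-KD-labelled libraries fell inside the control range and its replicates 2 and 3 above it. Neither of the other differences of Polr1B passed the test (against Brat-depleted NB II log2 -0.61, edgeR adjusted p = 0.25, and against the control log2 1.17, edgeR adjusted p = 0.18). Within each library the ratio of Polr1A to Polr1B was 1.36, 2.79 and 2.78 in the control, 2.48, 2.39, 3.04 and 3.24 in the Brat-depleted libraries, and 7.57, 3.27 and 3.65 in those labelled brat-KD/Spt5-KD. This ratio was chosen after the values were seen and is given without a test.

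Polr1C (FBgn0031657, 2L:4969004-4970216, plus strand) encodes a subunit that RNA polymerases I and III share. Its levels were 44.3, 39.5 and 49.3 CPM in control NB II, 74.7, 87.5, 51.8 and 56.8 CPM in Brat-depleted NB II and 114, 114 and 84.2 CPM in the brat-KD/Spt5-KD-labelled libraries. The 3 genotypes formed an ascending series with an overlap only between Brat-depleted NB II and the brat-KD/Spt5-KD-labelled libraries, and the difference passed the test only between the latter and the control (log2 fold change 1.23, SE 0.27, edgeR adjusted p = 0.036), a call lost without any single library other than brat-KD/Spt5-KD replicate 1. The first step of the series was not called (log2 fold change 0.60, SE 0.22, edgeR adjusted p = 0.071). Tif-IA (FBgn0032988, 2L:22249876-22258260, plus strand), the homolog of RRN3, recruits RNA polymerase I to the rRNA promoter, and it had the smallest fitted change of all members in Brat-depleted NB II. It stood at 68.5, 85.6 and 81.8 CPM in control NB II, 85.9, 79.3, 75.4 and 98.6 CPM in Brat-depleted NB II and 104, 96.5 and 106 CPM in the brat-KD/Spt5-KD-labelled libraries. Control and Brat-depleted NB II overlapped (log2 fold change 0.10, SE 0.16, edgeR adjusted p = 0.71), and the brat-KD/Spt5-KD-labelled libraries lay above the control without passing the test (log2 fold change 0.38, SE 0.22, edgeR adjusted p = 0.38). The gene nclb, the fly homolog of PWP1, which acts on transcription by RNA polymerase I, was higher than in the control in Brat-depleted NB II (log2 0.87, edgeR adjusted p = 0.0071) and in the brat-KD/Spt5-KD-labelled libraries (log2 0.98, edgeR adjusted p = 0.04). Without any single library other than brat-KD/Spt5-KD replicate 1 the second of these calls was lost.

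The protein components of small nucleolar RNPs rose in Brat-depleted NB II. All 6 that were measured were higher than in the control, and they kept this call whichever library was left out. Between the brat-KD/Spt5-KD-labelled libraries and Brat-depleted NB II only Nopp140 passed the test. Fib (FBgn0003062, 2R:23072909-23074725, minus strand) is the methyltransferase of box C/D snoRNPs, which add 2′-O-methyl groups to rRNA. Fib stood at 213, 332 and 352 CPM in control NB II, 691, 734, 744 and 575 CPM in Brat-depleted NB II and 243, 629 and 582 CPM in the brat-KD/Spt5-KD-labelled libraries. All Brat-depleted libraries lay above all control libraries (log2 fold change 1.19, SE 0.19, edgeR adjusted p = 0.00091), and brat-KD/Spt5-KD replicate 1 lay within the control range while replicates 2 and 3 did not. Its difference between the brat-KD/Spt5-KD-labelled libraries and Brat-depleted NB II did not pass (log2 fold change -0.52, SE 0.31, edgeR adjusted p = 0.32). Nop56 (FBgn0038964, 3R:22419095-22421068, minus strand) and nop5 (FBgn0026196, 2L:6916753-6918743, minus strand), the fly homolog of NOP58, are paralogs that hold the box C/D particle together. Nop56 stood at 300, 273 and 295 CPM in control NB II, 511, 596, 517 and 488 CPM in Brat-depleted NB II and 443, 685 and 694 CPM in the brat-KD/Spt5-KD-labelled libraries. The levels of nop5 were 225, 356 and 352 CPM in control NB II, 702, 785, 676 and 664 CPM in Brat-depleted NB II and 131, 551 and 484 CPM in the brat-KD/Spt5-KD-labelled libraries.

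Both paralogs were above the control in Brat-depleted NB II (Nop56 log2 0.85, edgeR adjusted p = 0.001, nop5 log2 1.18, edgeR adjusted p = 0.00061), although the adjusted p of nop5 was 0.06 with all 3 genotypes in 1 fit. In the brat-KD/Spt5-KD-labelled libraries, Nop56 lay above all control libraries (log2 fold change 1.07, SE 0.23, edgeR adjusted p = 0.035) and nop5 lay below all Brat-depleted libraries, a difference that did not pass the test (log2 fold change -0.88, SE 0.41, edgeR adjusted p = 0.21). The call on Nop56 was lost without any single library other than brat-KD/Spt5-KD replicate 1. The ratio of Nop56 to nop5 within a library was 0.727 to 0.764 in the 4 Brat-depleted libraries and 3.39, 1.24 and 1.43 in those labelled brat-KD/Spt5-KD, which do not overlap with them. In the control it was 1.33, 0.767 and 0.840. The ratio was looked at after the values were seen, and no test was made of it. The gene nop5 lies inside x16 on the same strand and holds a snoRNA, so that some of its reads may belong to these transcripts. The change of x16 in Brat-depleted NB II was smaller and did not pass (log2 fold change 0.48, SE 0.19, edgeR adjusted p = 0.084).

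The other class of particle, the box H/ACA snoRNPs, turns uridine into pseudouridine. Nop60B (FBgn0259937, 2R:24174877-24186343, plus strand), its pseudouridine synthase and the fly homolog of dyskerin, stood at 462, 395 and 413 CPM in control NB II, 945, 977, 859 and 661 CPM in Brat-depleted NB II and 199.9, 502 and 514 CPM in the brat-KD/Spt5-KD-labelled libraries. Brat-depleted NB II lay above both other genotypes, and the brat-KD/Spt5-KD-labelled libraries were on either side of the control, replicate 1 below it and the other two above it. The rise in Brat-depleted NB II passed (log2 fold change 1.01, SE 0.17, edgeR adjusted p = 0.0016), and the drop from there just missed the threshold (log2 fold change -1.10, SE 0.33, edgeR adjusted p = 0.06). Over the 14 alternative fits the adjusted p of this drop ranged from 0.0058 to 0.16, and 6 of them, including DESeq2 and the one that left out brat-KD/Spt5-KD replicate 1, passed. Nop60B contains 7 annotated snoRNA genes, whose reads its count can hold. NHP2 (FBgn0029148, 3L:14801328-14802168, minus strand), a small RNA-binding protein of the same particle, stood at 122, 142 and 138 CPM in control NB II, 187, 244, 202 and 175 CPM in Brat-depleted NB II and 82.9, 287 and 235 CPM in the brat-KD/Spt5-KD-labelled libraries. It had the smallest change among the snoRNP proteins in Brat-depleted NB II (log2 fold change 0.58, SE 0.15, edgeR adjusted p = 0.015), and the adjusted p was 0.28 when all 3 genotypes were fitted together. In the brat-KD/Spt5-KD-labelled libraries, replicate 1 was below every other library and replicate 2 above every other one.

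Nopp140 (FBgn0037137, 3L:21832774-21836685, plus strand), a chaperone of snoRNPs that travels between nucleolus and Cajal bodies, was 1 of the 3 members called lower in the brat-KD/Spt5-KD-labelled libraries. It stood at 229, 229 and 184 CPM in control NB II, 590.3, 642, 525 and 508 CPM in Brat-depleted NB II and 247, 410.2 and 319 CPM in the brat-KD/Spt5-KD-labelled libraries. The 3 genotypes did not overlap, and Brat-depleted NB II was highest. The rise from control to Brat-depleted NB II was kept in all alternative fits (log2 fold change 1.39, SE 0.15, edgeR adjusted p = 0.0001). The drop from there (log2 fold change -0.81, SE 0.21, edgeR adjusted p = 0.036) was lost without any one of the 4 Brat-depleted libraries or brat-KD/Spt5-KD replicate 3, with adjusted p of at most 0.11, and was kept without either of the other two.

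**Figure D3:**
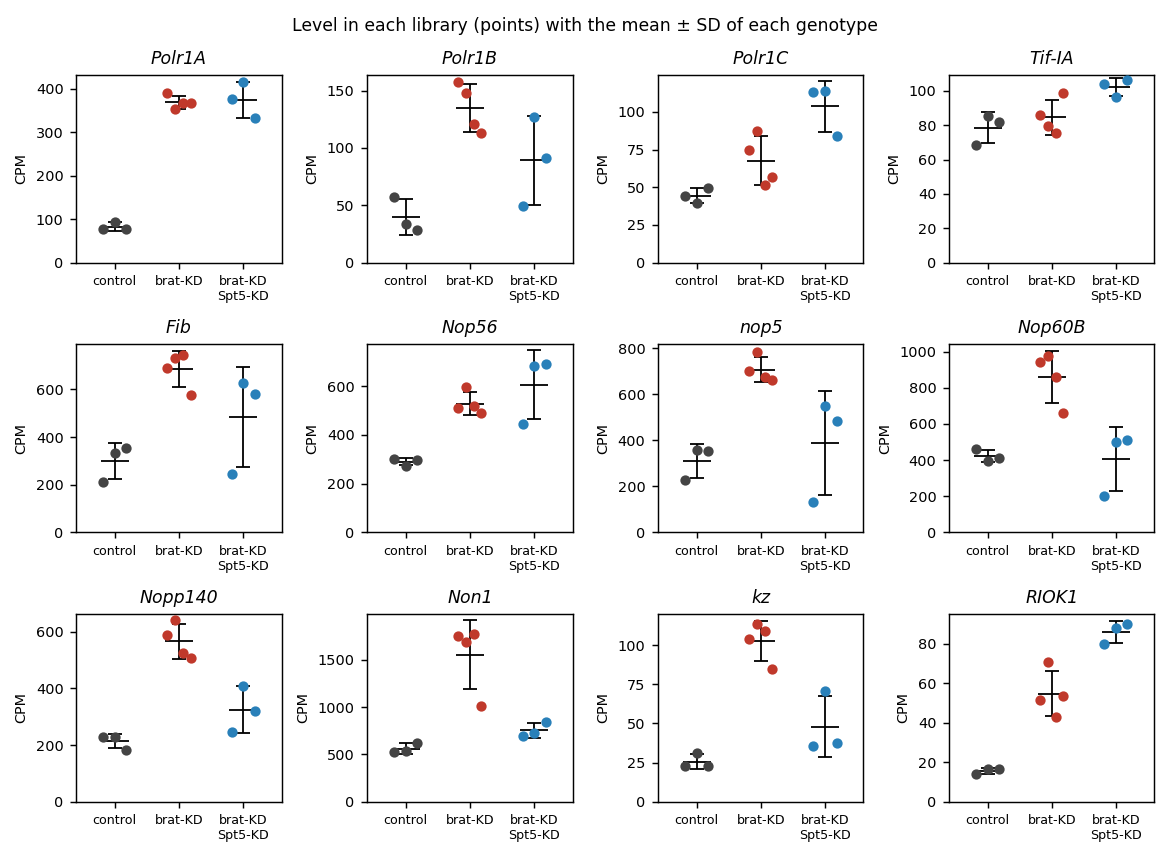
CPM of 12 members in each library (points) with the mean ± SD of each genotype (bars), on axes that start at 0. Polr1A stays at 333 to 415 CPM in the brat-KD/Spt5-KD-labelled libraries, near the 354 to 390.4 CPM of Brat-depleted NB II, whereas Non1 drops to 691 to 841 CPM from 1006 to 1766 CPM, and Fib and nop5 are split between replicate 1 and the other two.

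Nucleolar proteins and GTPases all rose from control to Brat-depleted NB II (7 of 7, median log2 fold change 1.18). The gene mod (FBgn0002780, 3R:32052060-32054974, plus strand) encodes Modulo, a nucleolin-like RNA-binding protein, and stood at 509, 451 and 408 CPM in control NB II, 1305, 1070, 933 and 872 CPM in Brat-depleted NB II and 755, 1041 and 877 CPM in the brat-KD/Spt5-KD-labelled libraries. Both knockdown genotypes lay above the control and overlapped each other, with a change of log2 1.18, edgeR adjusted p = 0.00084 in Brat-depleted NB II and log2 0.97, edgeR adjusted p = 0.037 in the brat-KD/Spt5-KD-labelled libraries. The second call was lost without any single library other than brat-KD/Spt5-KD replicate 1. The gene mbm (FBgn0086912, 2L:271912-273715, minus strand), mushroom body miniature, encodes a nucleolar protein that neuroblasts need for ribosome biogenesis and stood at 29.3, 43.4 and 40.9 CPM in control NB II, 133, 124, 94.0 and 89.5 CPM in Brat-depleted NB II and 29.7, 81.6 and 64.0 CPM in the brat-KD/Spt5-KD-labelled libraries. It rose in Brat-depleted NB II (log2 fold change 1.53, SE 0.21, edgeR adjusted p = 0.00048). All libraries labelled brat-KD/Spt5-KD were below all Brat-depleted ones, and replicate 1 was at the bottom of the control range, without a call (log2 fold change -0.93, SE 0.34, edgeR adjusted p = 0.12).

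The set also holds GTPases of the nucleostemin family. Ns1 (FBgn0038473, 3R:17070523-17072675, minus strand), the homolog of nucleostemin itself, helps large subunits leave the nucleolus. Ns1 stood at 125, 108 and 100.2 CPM in control NB II, 246, 271, 213 and 186 CPM in Brat-depleted NB II and 209.7, 406 and 286 CPM in the brat-KD/Spt5-KD-labelled libraries. Both knockdown genotypes were higher than the control (log2 1.03, edgeR adjusted p = 0.0014, and log2 1.44, edgeR adjusted p = 0.028) and overlapped each other. The second call was lost without any single library other than brat-KD/Spt5-KD replicate 1, and in the fit without that replicate Ns1 also passed against Brat-depleted NB II. Ns2 (FBgn0034243, 2R:17565779-17568456, minus strand), the homolog of the large subunit GTPase GNL2, stood at 77.9, 109 and 116 CPM in control NB II, 262, 261, 161 and 200.4 CPM in Brat-depleted NB II and 227, 202 and 155 CPM in the brat-KD/Spt5-KD-labelled libraries. Here replicate 1 of the brat-KD/Spt5-KD-labelled libraries was the highest of the 3, unlike in Fib, nop5 or mbm. The rise in Brat-depleted NB II passed (log2 fold change 1.12, SE 0.21, edgeR adjusted p = 0.0024), and the difference of the brat-KD/Spt5-KD-labelled libraries from the control did not (log2 fold change 0.95, SE 0.25, edgeR adjusted p = 0.06).

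Ns3 (FBgn0266284, X:1461844-1464220, minus strand), the homolog of the cytoplasmic GTPase LSG1 that removes the export adaptor Nmd3, stood at 22.6, 81.8 and 70.8 CPM in control NB II, 156, 189, 141 and 155 CPM in Brat-depleted NB II and 165, 242 and 193 CPM in the brat-KD/Spt5-KD-labelled libraries. Control replicate 1 was the lowest library, below the other two control libraries. The libraries of both knockdown genotypes lay above all control libraries. The rise in Brat-depleted NB II passed (log2 fold change 1.45, SE 0.34, edgeR adjusted p = 0.0085), and that in the brat-KD/Spt5-KD-labelled libraries narrowly did not (log2 fold change 1.79, SE 0.45, edgeR adjusted p = 0.054). Nmd3 itself, which carries large subunits out of the nucleus, rose in Brat-depleted NB II (log2 0.88, edgeR adjusted p = 0.017), a call lost without control replicate 2 or 3 or brat-KD replicate 1, where the adjusted p was at most 0.063.

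Non1 (FBgn0028473, 2R:9396265-9398734, minus strand), the homolog of the large subunit GTPase NOG1, was the most abundant member per length in control and Brat-depleted NB II. It stood at 529, 532 and 624 CPM in control NB II, 1745, 1688, 1766 and 1006 CPM in Brat-depleted NB II and 691, 725 and 841 CPM in the brat-KD/Spt5-KD-labelled libraries. Within Brat-depleted NB II replicate 4 was low, and it still exceeded every library of the other genotypes. The rise in Brat-depleted NB II was log2 fold change 1.46, SE 0.22, edgeR adjusted p = 0.00065, and the drop in the brat-KD/Spt5-KD-labelled libraries was log2 fold change -1.06, SE 0.23, edgeR adjusted p = 0.021. The drop was lost without brat-KD replicate 1, 2 or 3 or without brat-KD/Spt5-KD replicate 2 (adjusted p at most 0.078) and kept in the remaining 3 such fits. These libraries lay above the control by a margin that was not called (log2 fold change 0.42, SE 0.18, edgeR adjusted p = 0.22). Non1 overlaps no other annotated gene.

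The 6 members filed by role as small subunit factors were the group with the largest median change in Brat-depleted NB II (1.39), and all 6 were called. A further 8 helicases and other factors were filed apart, whatever subunit they act on, and 6 of these were called (median 1.06). RIOK1 (FBgn0036187, 3L:11646234-11648474, minus strand), an atypical kinase of late pre-40S particles, stood at 13.9, 16.5 and 16.8 CPM in control NB II, 51.7, 70.7, 43.0 and 53.6 CPM in Brat-depleted NB II and 79.8, 87.8 and 90.2 CPM in the brat-KD/Spt5-KD-labelled libraries. The genotypes did not overlap, and the brat-KD/Spt5-KD-labelled libraries were highest. RIOK1 rose in Brat-depleted NB II (log2 fold change 1.79, SE 0.24, edgeR adjusted p = 0.00041) and had the largest change of any member in the brat-KD/Spt5-KD-labelled libraries against the control (log2 fold change 2.45, SE 0.30, edgeR adjusted p = 0.0065), a call lost only without control replicate 2, where the adjusted p was 0.060. Between the last pair of genotypes it was not called (log2 fold change 0.63, SE 0.22, edgeR adjusted p = 0.11). Its relative RIOK2, the kinase of an earlier step, was called in the same 2 comparisons (log2 0.61, edgeR adjusted p = 0.018, and log2 1.04, edgeR adjusted p = 0.039), as was Mat89Ba, the homolog of the nucleolar protein NOL6 (log2 1.37, edgeR adjusted p = 0.0054, and log2 1.77, edgeR adjusted p = 0.039). For RIOK2 the first call was lost without control replicate 2 or brat-KD replicate 1 (adjusted p at most 0.062) and the second without any library but brat-KD/Spt5-KD replicate 1, and for Mat89Ba the second was lost without control replicate 2 or 3 or brat-KD/Spt5-KD replicate 2 or 3. RIOK2 overlaps a noncoding RNA on the opposite strand over 945 bp.

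The helicase gene kz (FBgn0001330, X:2237858-2242035, minus strand), kurz, is the homolog of DHX37, which acts on the small subunit processome. It stood at 22.6, 31.1 and 22.8 CPM in control NB II, 104, 113, 109 and 84.5 CPM in Brat-depleted NB II and 35.8, 70.5 and 37.3 CPM in the brat-KD/Spt5-KD-labelled libraries. The 3 genotypes did not overlap, with Brat-depleted NB II highest and the brat-KD/Spt5-KD-labelled libraries between it and the control. The rise was the second-largest of all members (log2 fold change 1.99, SE 0.20, edgeR adjusted p = 5.2e-05), and the drop the largest (log2 fold change -1.11, SE 0.29, edgeR adjusted p = 0.04). The drop was lost without any one Brat-depleted library or without brat-KD/Spt5-KD replicate 3 (adjusted p at most 0.11). The gene wcd, the homolog of UTP18 in the same processome, rose in Brat-depleted NB II (log2 1.41, edgeR adjusted p = 0.0017). So did bys, which encodes bystin of the pre-40S particle (log2 1.29, edgeR adjusted p = 0.00093), although its adjusted p was 0.11 with all 3 genotypes in 1 fit. In brat-KD/Spt5-KD replicate 1, bys stood at 16.5 CPM, below all other libraries, and in replicates 2 and 3 at 137 and 91.8 CPM, within the Brat-depleted range of 91.1 to 160.0 CPM.

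Among the remaining factors, pit (FBgn0266581, 3R:22034298-22038925, plus strand), or pitchoune, encodes a nucleolar DEAD-box helicase related to DDX18. It stood at 71.3, 96.3 and 86.5 CPM in control NB II, 239, 213, 168 and 206 CPM in Brat-depleted NB II and 170.2, 306 and 278 CPM in the brat-KD/Spt5-KD-labelled libraries. Both knockdown genotypes lay above the control (log2 fold change 1.28, SE 0.17, edgeR adjusted p = 0.00032, and log2 fold change 1.57, SE 0.28, edgeR adjusted p = 0.02), and they overlapped each other. The second of these calls was lost without any single library other than brat-KD/Spt5-KD replicate 1. The gene Fadd lies inside pit on the same strand, and it held 0 to 21.7 CPM. Surf6, Nnp-1 and the helicase pths rose in Brat-depleted NB II, by 1.25, 1.06 and 1.06 on the log2 scale (edgeR adjusted p = 0.0015, 0.00085 and 0.0020), and were not called in the other comparisons. Non3, a Brix domain protein of the large subunit, passed in Brat-depleted NB II (log2 0.72, edgeR adjusted p = 0.036), but this call was lost without control replicate 1, 2 or 3 or brat-KD replicate 1 or 2 (adjusted p at most 0.079). Dbp73D also passed there (log2 1.11, edgeR adjusted p = 0.034) while its libraries overlapped, and the call was lost without control replicate 2 or 3 or brat-KD replicate 1 or 2 (adjusted p at most 0.11). The helicase Dbp45A did not pass in any comparison (log2 0.59, edgeR adjusted p = 0.058 for Brat-depleted against control NB II).

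Only l(1)G0004 (FBgn0027334, X:20391447-20392401, plus strand) had its combination of calls. Its order of mean levels, with control lowest and the brat-KD/Spt5-KD-labelled libraries highest, was that of 13 members. The levels of l(1)G0004 were 61.3, 58.3 and 69.0 CPM in control NB II, 88.3, 94.8, 87.8 and 66.4 CPM in Brat-depleted NB II and 109.5, 165 and 182 CPM in the brat-KD/Spt5-KD-labelled libraries. Brat-depleted NB II overlapped the control (log2 fold change 0.41, SE 0.18, edgeR adjusted p = 0.11), and all libraries labelled brat-KD/Spt5-KD lay above all others. It was the only member called higher there than in Brat-depleted NB II (log2 fold change 0.83, SE 0.23, edgeR adjusted p = 0.046), and it was also called against the control (log2 fold change 1.28, SE 0.26, edgeR adjusted p = 0.032). The first of these calls was kept only when brat-KD/Spt5-KD replicate 1 was left out, among the 7 fits that omit a library (adjusted p at most 0.13), and the second was likewise kept only then, among 6.

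The brat-KD/Spt5-KD-labelled libraries disagreed with each other over many members. In replicate 1, 25 of the 32 members lay above the control mean, against 32 in each of replicates 2 and 3. The median over the members was 0.45 above the control mean in replicate 1 on the scale of log2(CPM + 1), with values from -1.54 to 2.28, while the median over 7691 expressed genes in this library was -0.18. Polr1A in replicate 1 lay between the other two, Ns2 and RIOK2 were highest in replicate 1, and RIOK1 and Mat89Ba were lowest there by a small margin (79.8 against 87.8 and 90.2 CPM, and 103 against 127 and 104 CPM), whereas Fib, nop5, Nop60B, NHP2, mbm and bys lay below all Brat-depleted libraries there, and nop5, Nop60B, NHP2 and bys also below all control libraries. The choice of these examples was made with the values in view. The labels state that either 17 or 24 PCR cycles were used and do not say for which library, so this could not be set beside the values.

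The counts of 17 members can hold reads of another gene, since their annotated span overlaps one, mostly by the ends of neighbours. For Fib, nop5, Nop60B, pit, Surf6 and pths such a gene lies on the same strand. The rest overlap genes on the opposite strand only, whose reads are included only if the strand was ignored in counting, which is not known. Of the 15 measured members that overlap none, 14 were called higher in Brat-depleted NB II (median log2 fold change 1.18), 1 was called in the brat-KD/Spt5-KD-labelled libraries against Brat-depleted NB II (Non1) and 5 against the control (Nop56, Ns1, mod, nclb and RIOK1). Members lay on all major chromosome arms, with 8 each on 2R and 3R, 7 on 2L, 5 on X and 4 on 3L.

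Other genes of ribosome production were compared as lists. Of 37 further assembly factors, 29 rose and 0 fell from control to Brat-depleted NB II, with a median of 1.15, the same as over the members. This list also holds Aladin, Rtel1 and pes, which are not assembly factors, pes having been matched by a synonym. At an unadjusted p under 0.05 there were 34 higher and 0 lower, and DESeq2 called 32 and 0. The count was 27 to 29 with any library left out. In the brat-KD/Spt5-KD-labelled libraries 1 of these 37 was lower than in Brat-depleted NB II and 0 were higher (median -0.16), where an unadjusted p under 0.05 gave 4 and 3 and DESeq2 2 and 2. The gene called was CG12325 (log2 fold change -1.79, SE 0.42, edgeR adjusted p = 0.027), named after its value was seen. Without any one Brat-depleted library or brat-KD/Spt5-KD replicate 3 the number lower was 0, and without brat-KD/Spt5-KD replicate 2 it was 2. Against the control 9 of the 37 were higher there (median 0.94), 26 without brat-KD/Spt5-KD replicate 1 and 0 or 1 without any other single library.

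Polymerase subunits gave smaller numbers. Over all genes tested, 13.8% were higher and 14.3% lower in Brat-depleted against control NB II. Between the brat-KD/Spt5-KD-labelled libraries and Brat-depleted NB II, 5.91% were higher and 5.71% lower. Of 6 further genes for RNA polymerase I transcription only Polr1E, a subunit that acts in initiation and elongation, was higher in Brat-depleted NB II (log2 fold change 1.09, SE 0.25, edgeR adjusted p = 0.0072), and it kept this call whichever library was left out. A list of 7 shared subunits, 5 of which serve RNA polymerases I, II and III while Polr1H and Polr2J belong to RNA polymerase I and II, had 0 genes higher and 3 lower (median -0.53). Polr2H (log2 fold change -0.68, SE 0.17, edgeR adjusted p = 0.011), Polr2K (log2 fold change -0.88, SE 0.20, edgeR adjusted p = 0.0067) and Polr2J (log2 fold change -0.86, SE 0.23, edgeR adjusted p = 0.02) were the 3 lower. Their number was 5 without control replicate 1, 1 without control replicate 3, 2 without control replicate 2 or brat-KD replicate 1, and 2 with all 3 genotypes in 1 fit. In the brat-KD/Spt5-KD-labelled libraries 3 of the 7, Polr2H, Polr2K and Polr2L, were higher than in Brat-depleted NB II (median 0.71), 5 without replicate 1 of these, 1 without the filter on low counts and 0 without any other single library. Against the control 0 of the 7 were called, with 0 at an unadjusted p under 0.05 and 0 by DESeq2. In Brat-depleted against control NB II, 6 of 12 genes of RNA polymerase III and its factors were higher and 1 lower (median 0.66). There were 3 higher without control replicate 3 or brat-KD replicate 1, 2 higher without brat-KD replicate 2 and 0 to 2 lower in the fits that left out a library. Of 8 subunits of RNA polymerase II, a list that holds Polr2J again, 1 was higher and 2, Polr2J among them, were lower in this same comparison (median -0.17). The number lower was 0 without control replicate 3 or brat-KD replicate 1, 1 without control replicate 2 or brat-KD replicate 3 and 3 without control replicate 1. Also in Brat-depleted against control NB II, the exosome, which trims rRNA precursors, had 3 of 11 subunits higher (median 0.39). In that comparison 0 of the 7 lncRNA genes that host snoRNAs were called by edgeR, with 1 at an unadjusted p under 0.05 and 1 by DESeq2.

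Genes named as ribosomal proteins were called higher in Brat-depleted NB II at far smaller shares than the members. They were listed by the start of the symbol, so that genes such as RpL24-like, RpLP0-like and RpL7-like are included. Of 87 genes for cytoplasmic ribosomal proteins 17 were lower and 2 higher in Brat-depleted NB II (median -0.36), where 14.3% of all genes tested were lower and 13.8% higher. The number lower was 6 without control replicate 3, 11 without control replicate 2 or without brat-KD replicate 3 or 4, 12 and 37 without brat-KD replicates 1 and 2, and 24 without control replicate 1. Their summed level was 173500 to 258600 CPM in the control, 140400 to 234300 CPM after Brat depletion and 139700 to 261000 CPM in the brat-KD/Spt5-KD-labelled libraries, and these ranges overlap. Of 72 genes for mitochondrial ribosomal proteins 11 were higher and 4 lower in Brat-depleted NB II (median -0.04), the number higher being close to the share over all genes tested. Without control replicate 2 or brat-KD replicate 1 or 2 the number higher was 7, and the number lower was 0 without control replicate 2 or 3, 2 without brat-KD replicate 1 and 11 without control replicate 1. Against Brat-depleted NB II 9 of these were higher in the brat-KD/Spt5-KD-labelled libraries (median 0.67), where 5.91% of all genes tested were higher, and the count was 40 without replicate 1 of these and 2 to 4 without any other library.

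**Figure D4:**
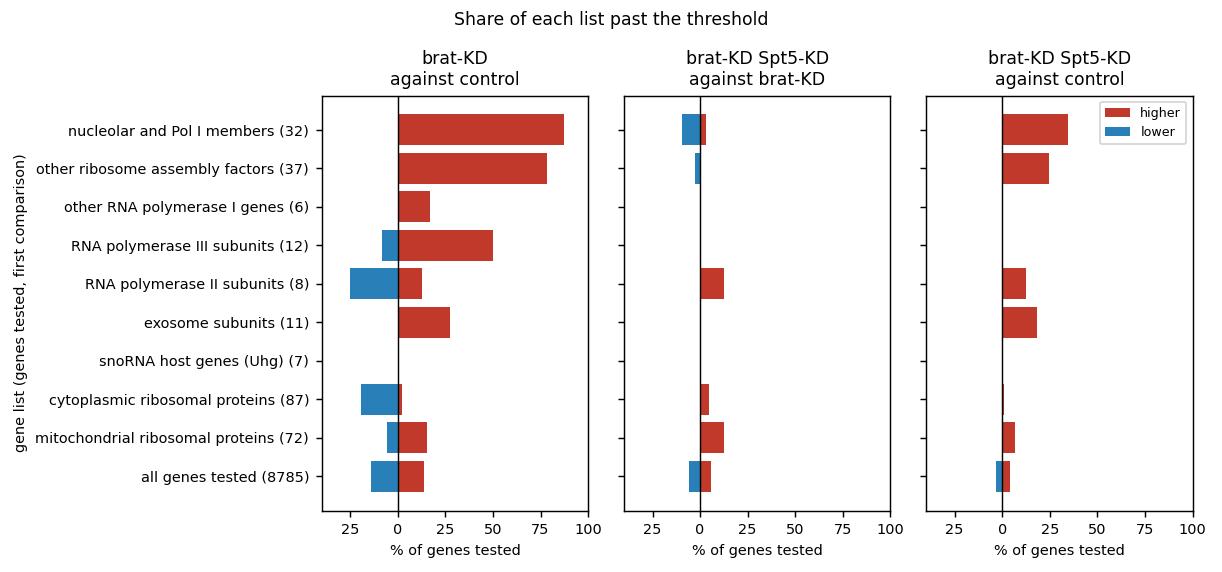
Share of the genes tested in each list that were higher (red, to the right) or lower (blue, to the left) at an adjusted p under 0.05 in each of the 3 comparisons, with the number tested in the first comparison in brackets. In Brat-depleted against control NB II the bars of the members (28 of 32) and of the other assembly factors (29 of 37) extend far beyond that of all genes tested (13.8% higher), and those of cytoplasmic ribosomal proteins point mainly to the left (17 of 87, where 14.3% of all genes tested were lower).

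The product of RNA polymerase I was counted only in part, because polyadenylated RNA was selected and the rRNA genes are near-identical copies among which reads cannot be placed. The most abundant of these, pre-rRNA:CR45856, stood at 9613, 5049 and 5377 CPM in control NB II, 791, 2149, 1583 and 3330 CPM in Brat-depleted NB II and 13030, 6607 and 9657 CPM in the brat-KD/Spt5-KD-labelled libraries. Brat-depleted NB II lay below both other genotypes, in the direction opposite to most members. The difference from the control was log2 fold change -1.79, SE 0.41, edgeR adjusted p = 0.008, and that of the brat-KD/Spt5-KD-labelled libraries from Brat-depleted NB II was log2 fold change 2.29, SE 0.45, edgeR adjusted p = 0.015. The second call was lost without brat-KD replicate 3 (edgeR adjusted p = 0.060) and with the replicate number as a block (edgeR adjusted p = 0.082). Such values give residual rRNA in the libraries and not the rate of rRNA synthesis, and how the share of residual rRNA arose was not tested.

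Myc, whose product is known to activate many of these genes, stood at 68.3, 95.0 and 99.0 CPM in control NB II, 567, 389.9, 418 and 411 CPM in Brat-depleted NB II and 117, 244 and 178 CPM in the brat-KD/Spt5-KD-labelled libraries. The 3 genotypes did not overlap, and Brat-depleted NB II was highest. Its rise passed (log2 fold change 2.35, SE 0.19, edgeR adjusted p = 2.1e-05), as did the drop in the brat-KD/Spt5-KD-labelled libraries (log2 fold change -1.33, SE 0.27, edgeR adjusted p = 0.017). The drop was lost without brat-KD replicate 1 (edgeR adjusted p = 0.057) or brat-KD/Spt5-KD replicate 3 (edgeR adjusted p = 0.055), and with the replicate number as a block (edgeR adjusted p = 0.13). Beside it, the summed CPM of the members in the brat-KD/Spt5-KD-labelled libraries (5510, 8993 and 7947) overlapped those of Brat-depleted NB II (10310, 10500, 9236 and 7998).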

How the data were processed

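Counts of reads per gene in 10 libraries were used (3 control, 4 brat-KD, 3 brat-KD Spt5-KD). The authors made directional libraries from polyadenylated RNA of sorted cells, mapped the reads with bowtie2 to BDGP6 (dm6 in the submitters' notes, which also name FastQC and edgeR 3.26.8), and deposited whole-number counts per gene without normalization. The counter and its annotation are not given in the sources used here. A count can include reads of genes that overlap or lie inside the gene. All columns belonged to a labelled library.

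Symbols, coordinates and overlaps came from the Ensembl annotation of the same assembly, in which 17549 of 17676 gene IDs were found. Each pair of genotypes was fitted over all genes kept by filterByExpr with TMM normalization and edgeR's quasi-likelihood test (edgeR 4.0.16, R 4.3.3), with Benjamini-Hochberg adjustment over all genes tested (threshold 0.05). SE is the log2 fold change divided by the square root of F. Alternatives were DESeq2 1.42.0, scaling by DESeq2 size factors or by library totals, omission of the filter or a minimum of 10 counts in each library, a joint fit of the 3 genotypes, the replicate number as a block, members without overlap, the omission of single libraries, and, chosen after seeing the data, both libraries that stand apart left out together. The labels do not say whether replicate numbers pair the samples. Members and lists were chosen with earlier results of these data known. Full values were given for genes listed by role and for up to 2 members with the largest called change per direction and comparison. Sequences and promoter motifs were not analysed here. Larvae are 96 h old in the labels and older in the methods.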

Additional observations from a re-analysis of the deposited data

Results flagged for a closer look

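In the 4 Brat-depleted libraries, the only group large enough for the check on single libraries, 1 library lay far from the others for 2 of the 32 members. Non1 stood at 1006 CPM in brat-KD replicate 4 and at 1688 to 1766 CPM in the other 3. Non3 stood at 166 CPM in brat-KD replicate 2 and at 94.5 to 103 CPM in the other 3. The gap to the nearest library was 0.897 of the whole range for Non1 and 0.889 for Non3, above Dixon's 95% critical value for 4 samples, and chance alone gives about 1 such value in 20 groups.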

How the results depend on the processing

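For Brat-depleted against control NB II, the 28 members called became 22 with all 3 genotypes in 1 fit and 24 to 29 without single libraries, their median change (1.15) became 1.04 to 1.23 without single libraries, and 14 of the 15 members that overlap no other gene were called. The 2467 genes called over all genes became 1250 with all 3 genotypes in 1 fit and 1691 to 3229 without single libraries. Between the brat-KD/Spt5-KD-labelled libraries and Brat-depleted NB II, 1017 genes were called, 1648 with DESeq2, 1 with the replicate number as a block and 334 to 2408 without single libraries, and the 4 members called became 0 with the block, 1 among members without overlap and 0 to 8 without single libraries, with a median of -0.36 to 0.09. Against the control, 620 genes were called, 1347 with DESeq2, 1450 with all 3 genotypes in 1 fit, 232 with the replicate block, 2513 without replicate 1 of both genotypes (chosen after seeing the data) and 64 to 1504 without single libraries, and the 11 members called became 3, 23, 5 and 1 to 21 with the block, without both replicates 1, among members without overlap and without single libraries, with a median of 0.72 to 1.12. The cause of these shifts was not tested. Same-numbered libraries deviated together with correlations of -0.033 to 0.157, and libraries with different numbers with -0.15 to 0.143. These correlations cannot show how the libraries were made, and the labels do not say whether equal numbers mark a pair. Whether the block belongs in the fit is therefore not known. No member called in 1 fit changed direction in another. Brat-KD/Spt5-KD replicate 3, with 2158058 counts, is the shallowest library.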
